A study of Gallus gallus with 8 samples.

Results

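The 6 genes described here, B2M, BF2, BLB2, TAP1, TAP2 and CD74, encode chains of the chicken major histocompatibility complex (MHC) molecules and proteins that load peptides onto them. They were chosen by name, and every array probe whose accession matched one of these symbols was read. Of 43603 probes, 12 matched, and they covered 5 of the 6 genes. BLB2 had no matched probe, so no level of BLB2 was measured here. Of the 12 probes, 9 passed the brightness filter (well above background on 2 or more of the 8 arrays), and each of the 5 genes kept at least 1 probe. These 5 genes were tested among 24136 gene entries of 31523 on the array.

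Class I molecules show peptides from the cytosol to cytotoxic T cells. TAP1 and TAP2 form the transporter that carries those peptides into the endoplasmic reticulum, where they bind a class I heavy chain such as BF2 held by the light chain B2M. Class II molecules show peptides from endosomes to helper T cells and are typical of B cells: BLB2 and BLB1 are class II beta chains, and CD74, the invariant chain, fills the class II groove until endosomal proteases cut it away. In chickens TAP1 and TAP2 lie between the class I genes BF1 and BF2 in the compact B locus, while B2M and CD74 are encoded elsewhere.

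Expression was measured in DT40 cells, a B cell lymphoma line from the chicken bursa, on Agilent one-colour arrays. Of the 8 arrays, 3 were wild type (WT), 2 were labelled BCL6-deficient (BCL6KO) and 3 were labelled as lacking IRF4 together with BCL6 (DKO). The protein BCL6 represses transcription in B cells of the germinal centre, whereas IRF4 activates the programme of plasma cells. How many knockout clones stood behind each label is not given in the sources used here. The protocol text mentions cultures of WT and IRF4KO cells only. The p-values therefore measure the spread between these arrays, which may be technical. Each gene's test pooled this spread over all 3 groups. Replicates differed most in BCL6KO: the SD of their log2 difference was 0.65, against 0.44 to 0.49 for WT and DKO-labelled replicates. The pooled spread may thus be too small for BCL6KO. SEs and p-values of comparisons with BCL6KO may then overstate the certainty.

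The labels were checked before the members were read. IRF4 was at 3.77% of the WT signal on the DKO-labelled arrays, and BCL6 was at 0.639% of the WT signal on the BCL6KO arrays. On the DKO-labelled arrays the 4 BCL6 probes differed. The brightest BCL6 probe stood at 29.7% of WT, 46.5-fold above BCL6KO, and 2 further probes were lower than in WT by a like amount (log2 change -1.89 and -1.83). The remaining BCL6 probe averaged a log2 level of -2.05 in WT, was well above background on none of the BCL6KO and DKO-labelled arrays, and was not called between these (limma adjusted p = 0.143 over all passing probes). Which part of BCL6 was deleted is not given in the sources used here, so these arrays are called by their label throughout, and DKO in the name of a comparison means these labelled arrays. In the authors' deposited value table, the 3 columns labelled WT ranked the probes as the 3 scanner files labelled DKO did (Spearman's rho of 1 after rounding). The columns labelled DKO matched no scanner file, with a best rho of 0.851, 0.970 and 0.968, each time to WT array 1. In that table IRF4 read 748 to 815 units in the columns labelled WT and 22694 to 37676 in those labelled DKO, so IRF4 goes against these column labels. All values below come from the scanner files with their own labels unless the value table is named. The BCL6KO arrays were scanned in a session of their own with another software version, so session and genotype cannot be told apart in comparisons with BCL6KO. WT array 2 shared a slide with DKO-labelled array 1, and WT array 3 with DKO-labelled array 2. Dimmer spots passed as well above background on the BCL6KO arrays: the lowest passing log2 level was -7.97 and -7.38 there, against -6.86 to -6.05 on the others.

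Levels are log2 of the processed signal minus log2 of the array's 75th percentile, so that 0 is the 75th percentile of an array. A gene was called when its Benjamini-Hochberg adjusted p from limma, taken over all tested genes, was under 0.05. Most genes on the array were called: 69.6% in BCL6KO against WT (42.0% higher, 27.7% lower), 68.3% in DKO against BCL6KO (29.0% higher, 39.4% lower) and 52.3% in DKO against WT (28.5% higher, 23.7% lower). Against this background, 2 of the 5 members were called in BCL6KO against WT (CD74 lower, TAP2 higher). In DKO against BCL6KO 4 of 5 were called (CD74 higher, B2M, TAP1 and TAP2 lower), and in DKO against WT 1 of 5 (CD74 lower). The median log2 change of all genes was 0.24, -0.18 and 0.07 in these comparisons and moved to -0.05, -0.03 and -0.08 when arrays were scaled by their median. Of all called genes, 60.3% were higher in BCL6KO against WT and 54.6% in DKO against WT, and median scaling changed these shares to 45.3% and 41.8%. The comparisons share arrays and are not independent of each other.

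CD74 showed the largest change among the tested probes of the 5 members in each comparison. Its intensity was 226536, 210499 and 196777 units on the 3 WT arrays, 3700 and 1918 on the BCL6KO arrays, and 34828, 45145 and 49198 on the DKO-labelled arrays. The 3 groups did not overlap: every WT array was brightest, both BCL6KO arrays were dimmest, and the DKO-labelled arrays lay between. The log2 level averaged 6.14 ± 0.10 in WT (SD, n = 3), fell to 0.37 ± 0.54 in BCL6KO (SD, n = 2) and stood at 4.05 ± 0.26 in the DKO-labelled arrays (SD, n = 3). The CD74 signal of BCL6KO was 1.84% of that of WT, 54.3-fold lower, a log2 change of -5.76 ± 0.24 (SE, limma adjusted p = 2.5e-06). It was 12.8-fold higher in the DKO-labelled arrays than in BCL6KO (log2 change 3.67 ± 0.24 SE, limma adjusted p = 2.2e-05). Against WT the DKO-labelled arrays held 23.5% of the CD74 signal (log2 change -2.09 ± 0.22 SE, limma adjusted p = 0.000225). In these bulk samples, fewer cells making CD74 and less CD74 RNA per cell cannot be told apart.

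A second CD74 probe gave the same order. Its intensity was 28127, 28549 and 28106 on the WT arrays, 328 and 129 on BCL6KO, and 2765, 4146 and 4517 on the DKO-labelled arrays. Both CD74 probes were well above background on all 8 arrays, so neither fold is a bound. In a fit of every passing probe, where 70.3%, 68.6% and 53.8% of probes were called, the second CD74 probe changed by -6.56, 3.85 and -2.71 log2 units in BCL6KO against WT, DKO against BCL6KO and DKO against WT (limma adjusted p = 0.000366 or less). That is 94.1-fold lower, 14.4-fold higher and 6.52-fold lower, somewhat more than the brighter probe in each comparison.

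The CD74 calls did not rest on a single array. Over the alternatives run on the scanner files, the log2 change of CD74 ran from -6.16 to -5.38 in BCL6KO against WT, from 3.29 to 4.05 in DKO against BCL6KO and from -2.40 to -1.94 in DKO against WT, and it was called each time. On the pair of slides that held both groups, DKO-labelled minus WT was -2.33 and -1.92 for the brighter CD74 probe and -3.11 and -2.56 for the other. In the authors' deposited value table, where IRF4 goes against the labels WT and DKO, the columns labelled WT read CD74 at 35179 to 49389 units, the columns labelled DKO at 132534 to 138872, and BCL6KO at 2324 and 4043. With its labels as given, CD74 in the authors' deposited value table was 1.64 log2 units higher in DKO than in WT (limma adjusted p = 0.00416). With these labels turned to follow IRF4, the sign would be that of the scanner files, and BCL6KO was lowest either way. The columns labelled WT and BCL6KO ranked the probes as the scanner files labelled DKO and BCL6KO did (Spearman's rho of 1 after rounding). They therefore repeat those arrays and add no separate support.

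**Figure D1:**
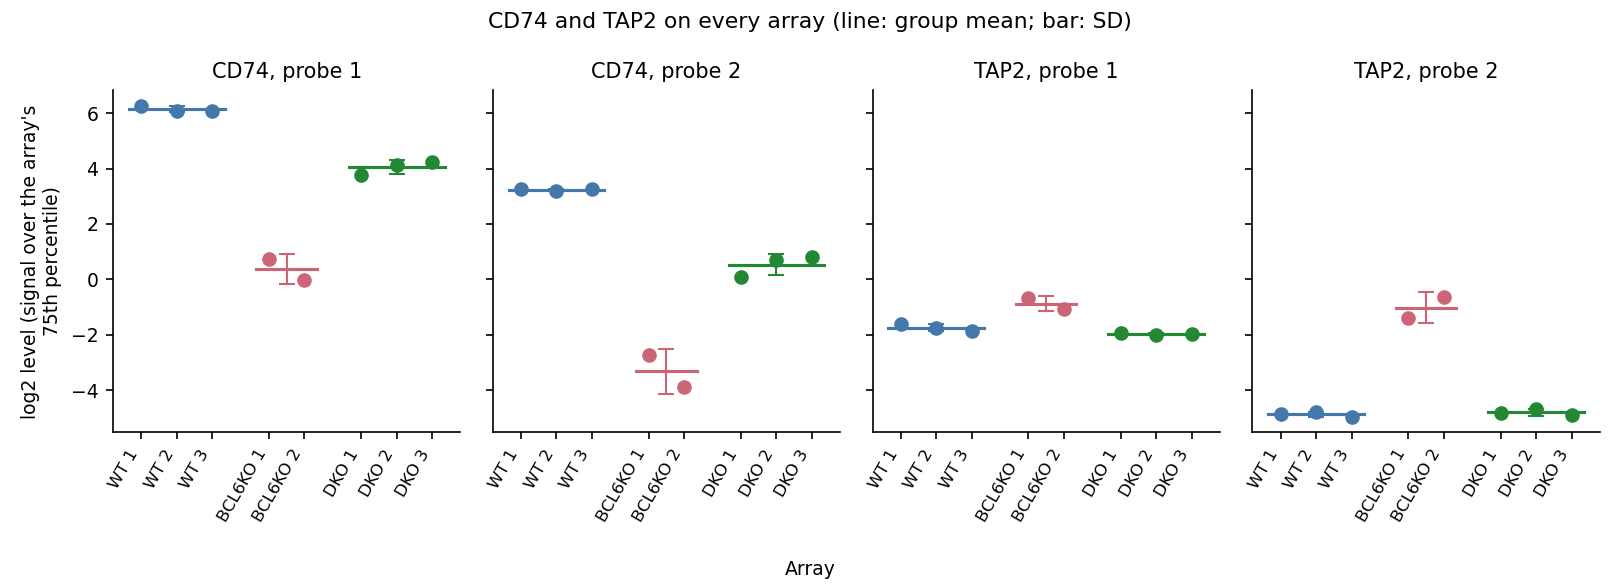
Log2 level (vertical axis, signal over the array's 75th percentile) of both CD74 probes and both TAP2 probes on each of the 8 arrays (horizontal axis), with a line at each group's mean and a bar of 1 SD (n = 3, 2 and 3). For CD74 the arrays fall into 3 levels that do not overlap, and for TAP2 the BCL6KO arrays lie above the other 6 on both probes.

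Marker genes of several cell types moved between the same groups. Of 10 B cell markers other than the members, 9 were called lower in BCL6KO against WT, against 27.7% of all genes. In DKO against BCL6KO 8 of the 10 were called higher and 1 lower, against 29.0% and 39.4% of all genes. All 10 were well above background on every WT array, 6 on both BCL6KO arrays and 9 on every DKO-labelled array, and PAX5 was not well above background on either BCL6KO array. Their summed level, in multiples of the 75th percentile, was 115 to 127 in WT, 31.6 to 51.3 in BCL6KO and 64.7 to 78.6 in DKO. POU2AF1, a B cell coactivator that was not called in BCL6KO against WT, made up 30.9 to 50.5 of the BCL6KO sum. Without POU2AF1 the other 9 B cell markers summed to 84.4 to 92.1 in WT, 0.671 to 0.775 in BCL6KO and 52.5 to 63.4 in DKO. CD79B alone made up 66.0 to 72.5 of the WT sum and 28.1 to 35.6 of the DKO sum.

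The sums of the other marker lists also rested mostly on 1 gene. Of 8 fibroblast markers, 2, 7 and 3 were well above background on every array of WT, BCL6KO and DKO, with summed levels of 0.384 to 0.419, 5.67 to 7.34 and 2.47 to 2.88. CDH11 made up 5.39 to 6.94 of the BCL6KO sum and COL1A2 2.23 to 2.65 of the DKO sum, and COL1A2 was called lower in BCL6KO against WT (log2 change -1.53, limma adjusted p = 1.78e-05). Of 7 tested fibroblast markers, 4 were called higher and 1 lower in BCL6KO against WT, against 42.0% and 27.7% of all genes. THY1, 1 of those 4, was well above background on the BCL6KO arrays only, so its direction is not read. DCN counted as above background in BCL6KO at log2 levels of -7.14 and -7.10, but not on WT arrays 2 and 3 at -7.00 and -6.46. Dimmer spots passed on the BCL6KO arrays, so the counts above background are not like for like between groups. Of 6 T cell markers, 4, 5 and 4 were well above background on every array, with summed levels of 66.1 to 68.6, 2.33 to 3.56 and 8.80 to 11.4, of which CD3D made up 63.5 to 65.9, 1.41 to 2.84 and 8.38 to 10.9. The summed level of 6 macrophage or dendritic cell markers was 0.417 to 0.453, 0.177 to 0.248 and 0.290 to 0.333, and that of 6 erythroid markers was 0.114 to 0.128, 0.193 to 0.228 and 1.37 to 1.46. Their part in the CD74 result was not tested.

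TAP2, the second subunit of the peptide transporter, was highest in BCL6KO. The brighter TAP2 probe had log2 levels of -1.62, -1.75 and -1.88 on the WT arrays, -0.68 and -1.07 on BCL6KO, and -1.92, -2.02 and -1.96 on the DKO-labelled arrays. Both BCL6KO arrays lay above every other array, while the DKO-labelled arrays lay just below the 3 WT arrays. From WT to BCL6KO the log2 change of TAP2 was 0.87 ± 0.13 (SE, limma adjusted p = 0.00111), a 1.83-fold rise. It was 2.13-fold lower in the DKO-labelled arrays than in BCL6KO (log2 change -1.09 ± 0.13 SE, limma adjusted p = 0.000396). The difference between the DKO-labelled arrays and WT, -0.22 ± 0.12 SE, did not pass the test (limma adjusted p = 0.171). It was called with median scaling, at -0.37 (limma adjusted p = 0.0427), and with array weights, at -0.23 (limma adjusted p = 0.0276).

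The other TAP2 probe moved in the same directions in both comparisons with BCL6KO but by much more. Its log2 levels were -4.87, -4.79 and -4.96 on the WT arrays, -1.40 and -0.63 on BCL6KO, and -4.82, -4.67 and -4.91 on the DKO-labelled arrays. WT and the DKO-labelled arrays overlapped, and BCL6KO stood apart from both. By this probe TAP2 was 14.5-fold higher in BCL6KO than WT (limma adjusted p = 8.31e-06 over all passing probes) and 13.8-fold lower in the DKO-labelled arrays than in BCL6KO. In those comparisons the TAP2 probes gave one direction and very unequal sizes, so the size of the TAP2 change is uncertain. A test against a fold of at least 1.5 did not call the brighter probe in BCL6KO against WT (limma adjusted p = 0.0932), and median scaling gave 0.58 (limma adjusted p = 0.00899), the lowest of a range that reached 2.36.

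TAP1, the partner subunit, was read near background. Its brightest probe had log2 levels of -5.87, -6.16 and -6.42 on the WT arrays, -5.93 and -5.13 on BCL6KO, and -6.43, -6.86 and -6.48 on the DKO-labelled arrays. It was well above background on 2 of 3 WT arrays, both BCL6KO arrays and 1 of 3 DKO-labelled arrays. BCL6KO overlapped WT, and both BCL6KO arrays lay above the 3 DKO-labelled arrays. TAP1 was called lower in DKO against BCL6KO (log2 change -1.06 ± 0.28 SE, limma adjusted p = 0.0127), but the call was made in 11 of 18 settings, this one included, and leaving out BCL6KO array 2 gave -0.66 (limma adjusted p = 0.0678). The other differences of TAP1 were 0.62 ± 0.28 in BCL6KO against WT (limma adjusted p = 0.083) and -0.44 ± 0.25 in DKO against WT (limma adjusted p = 0.188). A second TAP1 probe, well above background only on the BCL6KO arrays, did not differ beyond the threshold in any comparison, and the remaining TAP1 probe was well above background on none of the 8 arrays.

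B2M, the light chain of class I, was likewise dim. Its brightest passing probe had log2 levels of -6.22, -6.28 and -6.36 on the WT arrays, -6.18 and -5.81 on BCL6KO, and -6.77, -6.82 and -6.19 on the DKO-labelled arrays. Both BCL6KO arrays were above every other array, though BCL6KO array 1 and DKO-labelled array 3 were nearly equal, and the DKO-labelled arrays overlapped WT. B2M was called lower in DKO against BCL6KO (log2 change -0.60 ± 0.21 SE, limma adjusted p = 0.0389), with 1 of 3 DKO-labelled arrays well above background. That call was made in 5 of 18 settings, this one included, and was lost when any WT array was left out (limma adjusted p = 0.0581 to 0.0611). It was also lost without BCL6KO array 2, at -0.42 (limma adjusted p = 0.198), and without DKO-labelled array 1 or 2, at -0.51 (limma adjusted p = 0.104) and -0.49 (limma adjusted p = 0.103). The mean of the passing B2M probes turned the direction, to 0.53 (limma adjusted p = 0.314).

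The other B2M probes did not follow the first. The second passing B2M probe read -6.55, -7.27 and -6.27 on the WT arrays, -8.31 and -8.77 on BCL6KO, and -8.47, -6.35 and -5.80 on the DKO-labelled arrays. Here BCL6KO was lowest, but neither BCL6KO array was well above background, and the probe was called in no comparison. The remaining B2M probe did not rise well above background on an array of any group. No level of B2M was therefore measured well enough on all arrays to order the groups.

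BF2, the class I heavy chain, was read by a probe well above background only on the BCL6KO pair. Its log2 levels were -7.26, -6.81 and -6.92 on the WT arrays, -6.29 and -6.82 on BCL6KO, and -6.52, -6.66 and -6.70 on the DKO-labelled arrays. BCL6KO array 2 lay below all 3 DKO-labelled arrays yet counted as above background, since dimmer spots passed on that array. BF2 was called in none of the comparisons (limma adjusted p = 0.0807, 0.754 and 0.122). Without BCL6KO array 2 the log2 change of BF2 in BCL6KO against WT was 0.71, but that leaves 1 BCL6KO array. The probe passed the filter through the BCL6KO arrays alone, so no direction is read for BF2. The other BF2 probe was well above background on 1 of the 8 arrays. BF2 shares much of its sequence with BF1, and cross-hybridisation between them was not tested.

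**Figure D2:**
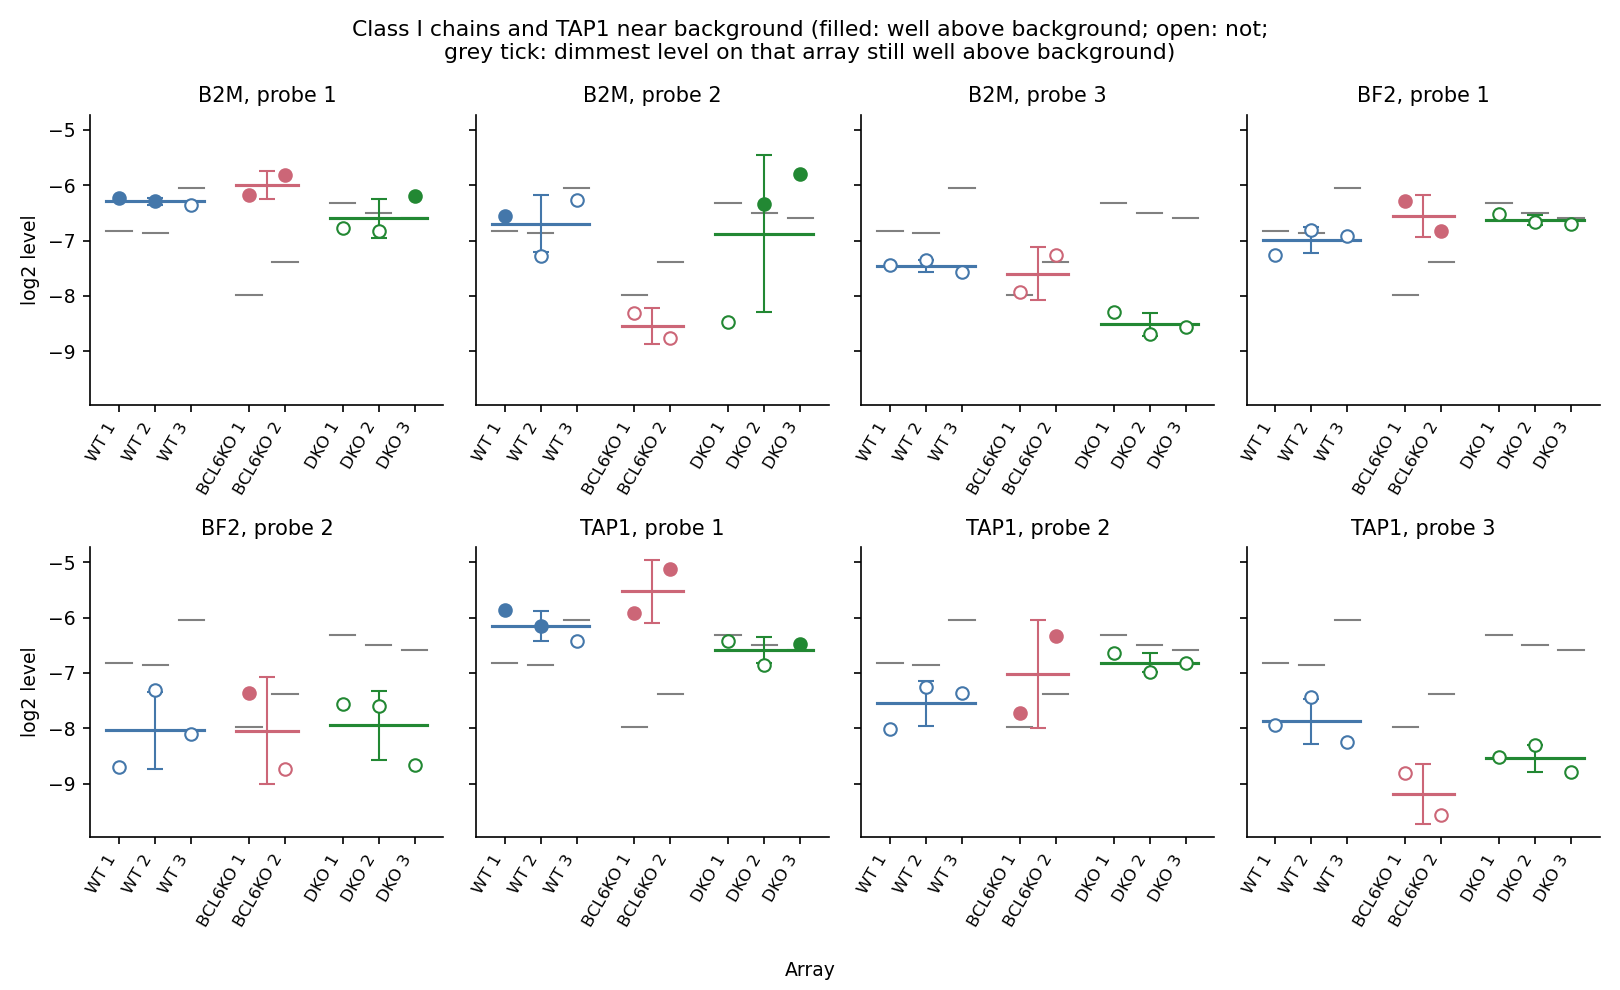
Log2 level (vertical axis) of the 8 probes of B2M, BF2 and TAP1 on each array (horizontal axis), filled where the spot was well above background and open where it was not, with group means, bars of 1 SD and a grey tick at the lowest level that passed on that array. Most points lie at or near the ticks, and the probes of a gene do not order the groups alike.

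BLB1, the second class II beta chain and a close relative of BLB2, was the nearest measured class II chain. Its brighter probe read -4.09, -4.29 and -4.14 on the WT arrays, -4.45 and -4.32 on BCL6KO, and -4.89, -4.98 and -5.07 on the DKO-labelled arrays. The DKO-labelled arrays lay below all others. BLB1 was 1.75-fold lower there than in WT (log2 change -0.81 ± 0.09 SE, limma adjusted p = 0.000239) and 1.51-fold lower than in BCL6KO (limma adjusted p = 0.00143), and it was not called in BCL6KO against WT (-0.22 ± 0.10 SE, limma adjusted p = 0.0834). A second BLB1 probe was called lower in all 3 comparisons, by -1.37 log2 units in BCL6KO against WT (limma adjusted p = 0.000163 over all passing probes). None of the 3 DKO-labelled arrays read it well above background, so no size is given for the differences with that group. BLB1 and BLB2 are close in sequence, and whether BLB2 RNA reached these probes was not tested.

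DMA and DMB2, the chains of the DM molecule that exchanges CD74 remnants for peptides on class II, were called in none of the comparisons. The log2 level of DMA stayed between -0.62 and -0.27 over the 8 arrays and that of DMB2 between -4.35 and -3.95. In BCL6KO against WT, where CD74 fell, the log2 changes of BLB1, DMA and DMB2 were -0.22, 0.05 and 0.19 on their tested probes. None of these 3 probes was called, but the second BLB1 probe was called lower, at -1.37 (limma adjusted p = 0.000163 over all passing probes).

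The proteases and membrane proteins of class II processing were called in both directions. Of 8 tested, 5 were higher and 3 lower in BCL6KO against WT, and 2 higher and 4 lower in DKO against BCL6KO. In DKO against WT 4 were higher and 3 lower. Of all genes, 69.6%, 68.3% and 52.3% were called in these comparisons. CTSS (cathepsin S), which in mouse and human makes the last cuts in the invariant chain, followed the order seen for CD74. Its log2 levels were 3.85, 3.77 and 3.70 on the WT arrays, -1.25 and -1.82 on BCL6KO, and 0.74 to 1.13 on the 3 DKO-labelled arrays. These groups did not overlap: CTSS was 39.5-fold lower in BCL6KO than WT (limma adjusted p = 1.29e-06), 5.74-fold higher in DKO than in BCL6KO (limma adjusted p = 4.21e-05) and 6.89-fold lower in DKO than in WT (limma adjusted p = 1.78e-05).

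Other endosomal proteases went the opposite way to CTSS and CD74. CTSB (cathepsin B) was 10.4-fold higher in BCL6KO than WT and 5.59-fold lower in DKO than in BCL6KO (limma adjusted p = 2.88e-05 and 0.000135). CTSV, a cathepsin L relative, was 9.02-fold higher and then 11.5-fold lower (limma adjusted p = 1.04e-05 and 7.2e-06), with no call in DKO against WT. CTSD (cathepsin D) was 5.94-fold higher in BCL6KO than WT and 2.71-fold higher in DKO than in WT (limma adjusted p = 3.07e-06 and 3.32e-05). CD82, in human a tetraspanin of class II compartments, was 42.1-fold lower in BCL6KO than WT (limma adjusted p = 3.28e-07) and 17.6-fold lower in DKO than in WT (limma adjusted p = 8.18e-07). Another passing CD82 probe changed by less, -2.04 and -2.30 log2 units in these comparisons. The remaining passing CD82 probes gave -5.82 and -5.53 in BCL6KO against WT, and -4.21 and -4.29 in DKO against WT. The probes share a direction there, but the size is uncertain.

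Genes that supply and load class I peptides were called in both directions. Of 8 tested beside TAP1 and TAP2, 2 were higher and 2 lower in BCL6KO against WT. In DKO against BCL6KO 2 were higher and 4 lower, and in DKO against WT 4 were higher and 3 lower. The called shares of all genes were 69.6%, 68.3% and 52.3%. The brighter probe of TAPBP (tapasin), which holds class I molecules at the transporter, was 10.3-fold higher in BCL6KO than WT (limma adjusted p = 1.3e-06) and 6.52-fold lower in DKO than in BCL6KO (limma adjusted p = 3.95e-06). The other TAPBP probe was called in the opposite direction in BCL6KO against WT, at -2.77 log2 units (limma adjusted p = 0.0022), so no direction is given for TAPBP. PSME3, a proteasome activator subunit, was 1.98-fold lower in BCL6KO than WT and 2.90-fold higher in DKO than in BCL6KO (limma adjusted p = 2.51e-05 and 3.7e-06). Its other passing probes changed in the same directions by less. They gave -0.85, -0.29 and -0.24 log2 units in BCL6KO against WT, and 1.30, 0.65 and 0.67 in DKO against BCL6KO. LNPEP, an aminopeptidase that in mouse and human can trim peptides, was 1.86-fold higher in DKO than in BCL6KO (limma adjusted p = 0.000905). CANX (calnexin), a chaperone of new class I chains, was 1.57-fold lower in DKO than in BCL6KO (limma adjusted p = 0.00193).

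Other class I chains were called as well. CD1B, which in human presents lipids and pairs with B2M, was 30.9-fold lower in BCL6KO than WT (limma adjusted p = 3.4e-07), 11.0-fold higher in DKO than in BCL6KO and 2.82-fold lower in DKO than in WT. CD1C, its relative, was at least 12.4-fold lower in BCL6KO than WT (limma adjusted p = 6.84e-07) and at least 6.88-fold higher in DKO than in BCL6KO. Normexp background correction on the deposited signals turned both directions. It was the only 1 of 17 alternatives to turn or lose either call, and normexp after repair of aberrant background values kept both. BF1, the minor class I heavy chain, was called higher in BCL6KO than in WT (limma adjusted p = 0.0093) but was well above background on the BCL6KO arrays only, and 6 of 17 alternatives lost the call. Of these 3 chains, CD1B and CD1C were thus called lower in BCL6KO against WT, as were 27.7% of all genes. The direction of BF1 is not read, since its probe passed the filter through the BCL6KO arrays alone.

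**Figure D3:**
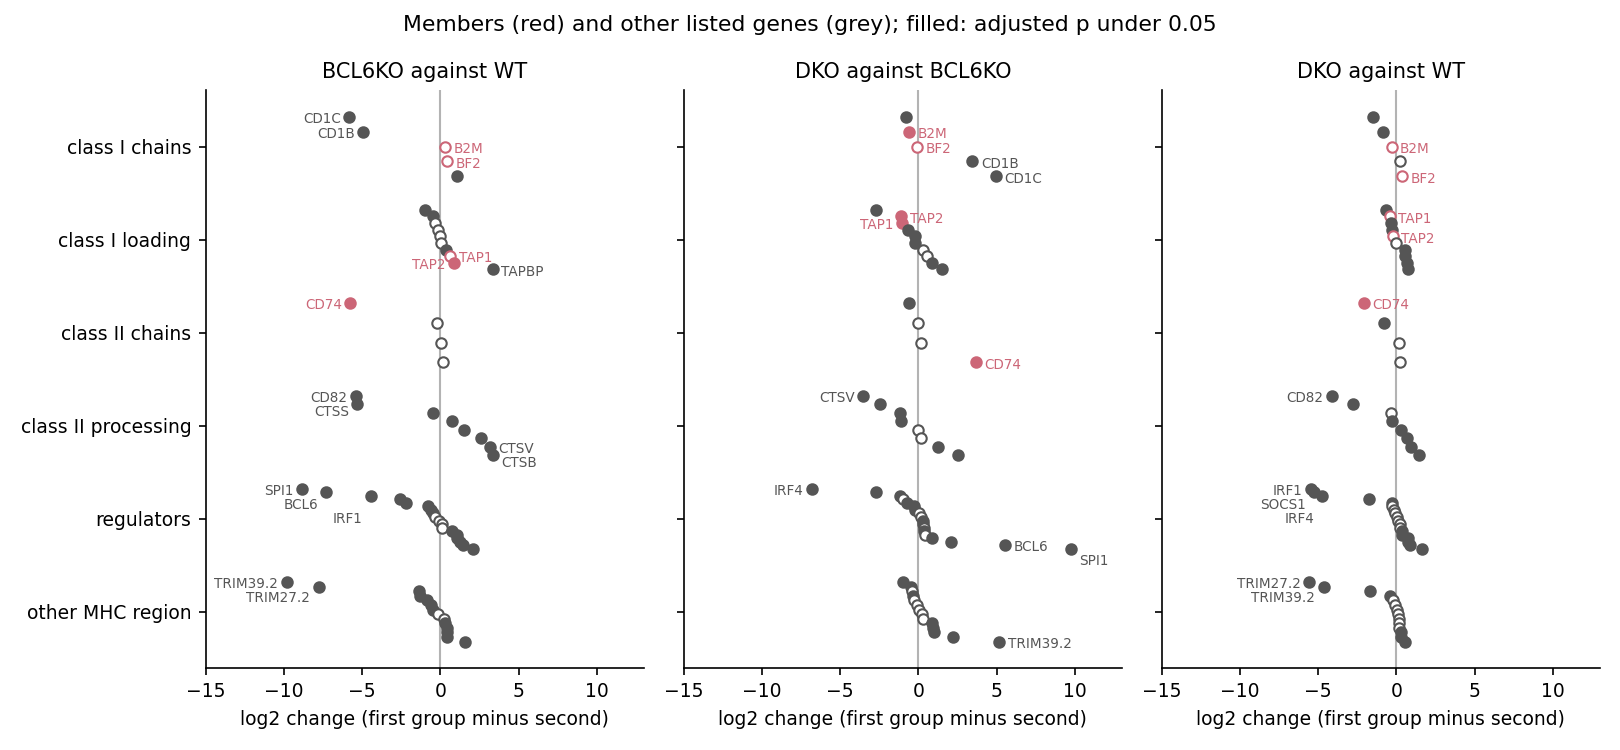
Log2 change (horizontal axis, first group minus second) of the 5 tested members in red and 54 other listed genes in grey, grouped by role (vertical axis), in the 3 comparisons, filled where the adjusted p was under 0.05. CD74 lies apart from the other class II chains in BCL6KO against WT (-5.76) and DKO against BCL6KO (3.67), and in DKO against BCL6KO TAP1 (-1.06), TAP2 (-1.09) and B2M (-0.60) are filled below 0.

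Transcription factors and cytokine signalling genes known to act on MHC genes were also read. Of 18 tested, IRF4 and BCL6 included, 6 were higher and 8 lower in BCL6KO against WT. In DKO against BCL6KO 7 were higher and 6 lower, and in DKO against WT 6 were higher and 5 lower. The called shares of all genes in these comparisons were 69.6%, 68.3% and 52.3%. CIITA, the master activator of class II genes, NLRC5, RFX5 and RFXAP had no matched probe. SPI1 (PU.1), which binds B cell and myeloid promoters, was at least 149-fold lower in BCL6KO than WT (limma adjusted p = 4.98e-08) and at least 271-fold higher in DKO than in BCL6KO (limma adjusted p = 6.14e-08). Against WT the DKO-labelled arrays read SPI1 1.82-fold higher (limma adjusted p = 0.00103). IRF8, a partner of PU.1, was 2.68-fold higher in BCL6KO than WT and 2.28-fold lower in DKO than in BCL6KO (limma adjusted p = 7.01e-05 and 0.000175).

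Genes of interferon and cytokine signalling were among those called. IRF1, an interferon-induced activator of class I genes, was 21.7-fold lower in BCL6KO than WT (limma adjusted p = 0.000101), and was called lower in DKO than in WT (limma adjusted p = 2.87e-05), with 2 of 3 DKO-labelled arrays well above background. SOCS1, an inhibitor of cytokine signalling, was 38.8-fold lower in DKO than in WT (limma adjusted p = 9.25e-07). NFKB1, a subunit of NF-kB, was called lower in BCL6KO than WT (log2 change -2.21) and was 4.15-fold higher in DKO than in BCL6KO (limma adjusted p = 0.000569). In DKO against WT NFKB1 was not called (log2 change -0.15).

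Of all genes, 69.6%, 68.3% and 52.3% were called in BCL6KO against WT, DKO against BCL6KO and DKO against WT. Over all 54 listed genes that are no members, 19 were higher, 22 lower and 13 not called in BCL6KO against WT. The median log2 change of the 54 was -0.12 against 0.24 for all genes. They include the targeted genes IRF4 and BCL6, and BF1, whose direction is not read. In DKO against BCL6KO 18 were higher and 19 lower, with a median of 0.10 against -0.18 for all genes. In DKO against WT 17 were higher and 18 lower, with a median of 0.07, the same as for all genes to 2 decimals. Of the 41 calls in BCL6KO against WT, 34 kept their direction under every alternative on the scanner files, as did 27 of 37 in DKO against BCL6KO and 34 of 35 in DKO against WT. Called under every one of those alternatives were 16, 13 and 7 of them. With normexp on the deposited signals set aside, 24, 20 and 11 were called under every remaining alternative. With the minimum fold, a stricter test, set aside as well, these counts were 31, 24 and 23. Normexp on the deposited signals ended, among others, the calls of CD1B, CD82, SPI1 and IRF1 in BCL6KO against WT, while those of CTSS, CTSB, CTSV, CTSD, PSME3 and IRF8 in that comparison were made under every alternative on the scanner files.

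Along the core of the B locus the reference orders the genes as BLB1, TAPBP, BLB2, BRD2, DMA, DMB1, DMB2, BF1, TAP1, TAP2 and BF2, of which BLB2, BRD2 and DMB1 had no matched probe. In BCL6KO against WT, of the neighbours BF1, TAP1, TAP2 and BF2, the tested probes of BF1 and TAP2 were called higher. The passing probes of BF1 and BF2 and 1 of TAP1 passed the filter through the BCL6KO arrays alone, so their direction is not read. The TAP1 and BF2 probes left out by the filter averaged -9.19 and -8.04 in BCL6KO against -7.88 and -8.04 in WT. TAP2 was the only one of these neighbours well above background on all 8 arrays. In DKO against WT none of the 4 was called on any passing probe. At the other end, both BLB1 probes were called lower in DKO against WT. Of the 14 other tested genes of the MHC region, 5 were higher and 7 lower in BCL6KO against WT. In DKO against WT 3 of the 14 were higher and 4 lower. Of all genes, 69.6% and 52.3% were called in these comparisons. BLEC1, a C-type lectin gene of the region, was 2.97-fold higher in BCL6KO than WT (limma adjusted p = 5.5e-05). TRIM39.2, whose signal was clear of background on every array but BCL6KO array 1, was called lower in BCL6KO (limma adjusted p = 7.37e-07). BTN1A1, a butyrophilin gene, was 3.22-fold lower in DKO than in WT (limma adjusted p = 0.000141).

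**Figure D4:**
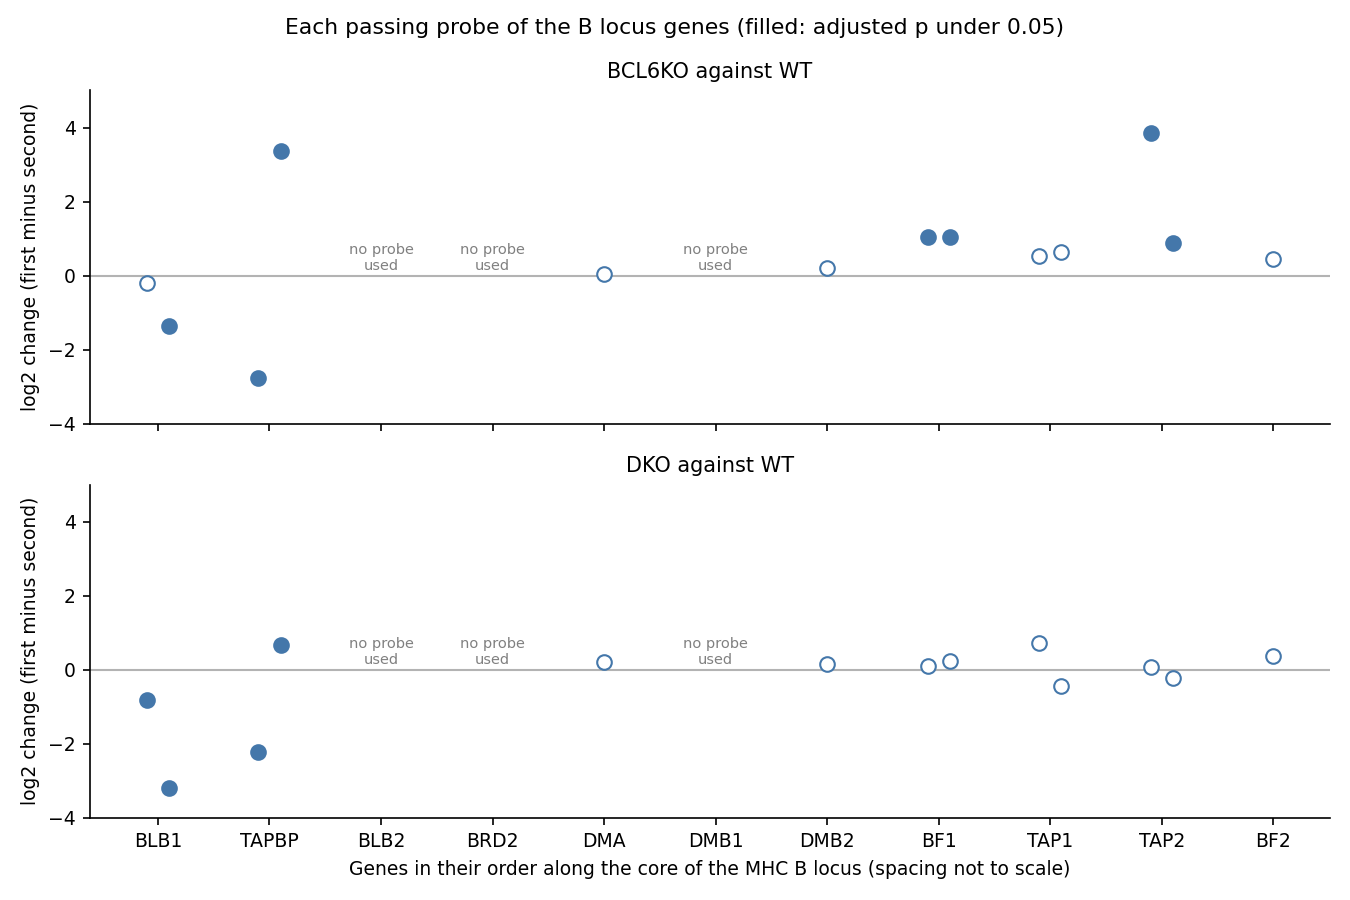
Log2 change (vertical axis, first group minus second) of each passing probe of the B locus genes in their order along the locus (horizontal axis, not to scale), in BCL6KO against WT and in DKO against WT, filled where the adjusted p was under 0.05. Both TAP2 probes are filled and above 0 in BCL6KO against WT, where the points of BF1, BF2 and 1 of TAP1 are of probes that passed through the BCL6KO arrays alone, and the probes of TAPBP lie on opposite sides of 0.

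The genes whose pattern over the 8 arrays was most like each member were listed by the root mean square difference of mean-centred log2 levels, among 4337 named genes. For CD74 they were PRNP (difference 0.20) and HMCES (0.28). PRNP, which encodes the prion protein, had a mean log2 level of 2.71 over the WT arrays, -3.05 over BCL6KO and 0.36 over the DKO-labelled arrays, and HMCES of 4.13, -1.96 and 2.31. For TAP2 they were FBXO8 (0.05) and PLEKHM2 (0.06), with FBXO8 at -2.99, -2.06 and -3.18. For TAP1 they were TRPV4 (0.16) and CCL4 (0.17), for B2M KCND2 (0.12) and EIF5A2 (0.15), and for BF2 HERC2 (0.13) and COQ8A (0.13). The patterns of B2M, BF2 and TAP1 rest on levels near background, and all patterns share the same 8 arrays. The TAP2 pattern is that of its brighter probe only, which rose by 0.87 log2 units in BCL6KO against WT. The other TAP2 probe rose by 3.86 there.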

How the data were processed

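Per the file headers, Agilent Feature Extraction made the processed signal, a linear intensity per spot after background subtraction and spatial detrending; arrays were not normalized to each other. Flags for spots above background, outlying or saturated (0 spots) are other columns of the deposited files. The authors also deposited a table of values, also intensity, with an unstated order of steps. Its scale is linear, uncentred, and the columns labelled WT were normalized apart from the other 5, with medians of 225 and 228. The submitters' processing notes name limma and R 2.12.0.

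Spots of a probe were averaged after leaving out outlier flags, and log2 of the signal minus log2 of each array's 75th percentile over 43803 spots was taken. Probes well above background on at least 2 of 8 arrays were kept (34229 of 43603). Gene names came from matching accessions to the RefSeq table, which named 10857 probes. Coordinates were not used, since the builds differ. The passing probe with the highest mean stood for a gene. A fit with limma 3.58.1 under R 4.3.3 over all 8 arrays gave 3 contrasts, with Benjamini-Hochberg adjustment, 5 residual and 1.58 prior degrees of freedom. The number of arrays limits the precision. The fit was tested on simulated data that took their spread from the WT and DKO-labelled arrays only. That test therefore does not cover the larger spread of the BCL6KO arrays or their separate scan session. Where every array of a group was not well above background, the fold is a bound ("at least"), taken against the lowest passing level of each array. Array replicate numbers did not pair WT and DKO-labelled arrays (correlation of deviations -0.02, -0.02 and 0.01). Named genes were all members, up to 3 called genes per direction, role and comparison with the largest change, the 2 most alike genes per member, and the targets IRF4 and BCL6. A few others are named because they lie beside the members in the B locus or on the marker lists. The members and lists were chosen with earlier results of these data known. The alternatives tried were other scalings, background corrections, filters, probe rules, blocks, array weights, a minimum fold and leaving out each array.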

Additional observations from a re-analysis of the deposited data

How the results depend on the processing

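CD74 kept its direction and its call in all 3 comparisons under every alternative on the scanner files, and TAP2 kept both in DKO against BCL6KO. With its labels as given, the authors' value table gave log2 changes in DKO against WT of 1.64 for CD74, 0.90 for TAP2, 2.20 for TAP1 and 0.40 for B2M. In DKO against BCL6KO it gave 1.30 for TAP1 and 0.81 for BF2. All were opposite to the scanner files. In DKO against BCL6KO the TAP1 and BF2 values rest on the column labelled DKO 1, whose best rho to a scanner file was 0.851. TAP1 read 1088 units there, against 64.9 and 44.5 in the other DKO columns and 47.6 and 74.8 in BCL6KO. BF2 read 216 there, against 33.7 and 29.0 in the other DKO columns and 39.0 and 29.5 in BCL6KO. IRF4, at 748 to 815 units in the columns labelled WT and 22694 to 37676 in those labelled DKO, goes against these labels. No direction is therefore read from this table. Other reversals concern genes near background and, apart from B2M in DKO against BCL6KO, differences that were not called above. In BCL6KO against WT, B2M went to -0.0019 with median scaling, -0.42 with quantile normalization and -0.78 as the mean of its probes, and quantile normalization gave -0.35 for BF2 and -0.0433 for TAP1. In DKO against BCL6KO, B2M went to 0.53 as the mean of its probes, and BF2 to 0.0713 with median scaling, 0.44 with quantile normalization and, when arrays were left out in turn, from -0.34 to 0.19. In DKO against WT, B2M went to 0.0101 with either normexp correction and TAP1 to 0.15 as the mean of its probes. The cause of these shifts was not tested. Members called in BCL6KO against WT numbered 5 with normexp after repair of aberrant background values and 1 with a minimum fold of 1.5. The 5 include BF2, whose probe passed the filter through the BCL6KO arrays alone, and B2M and TAP1, read near background. The share of all genes called is not given here for every setting, so the member counts by setting are not read as a result about the members. In DKO against BCL6KO 2 were called with quantile normalization, normexp on the deposited signals, the mean of probes, array weights or the minimum fold, and 1 in the value table. In DKO against WT 2 were called with median scaling, quantile normalization, repaired normexp, the value table or slide as a block, and 3 with array weights. With the replicate number as a block, 2 members were called in DKO against BCL6KO, where the calls of TAP1 (adjusted p = 0.0527) and B2M (adjusted p = 0.0509) were lost; the numbers did not pair the arrays. Leaving out each array in turn gave 2 to 3, 2 to 4 and 1 to 2 called members and 15321 to 17619, 15056 to 17449 and 10775 to 15333 called genes. Normexp on the deposited signals called 6876, 5933 and 2819 genes, the authors' table gave 8304, 7007 and 6875, and the minimum fold 8604, 8113 and 5260, against 16807, 16491 and 12620. Signal near background limits B2M, BF2 and TAP1, and 2 BCL6KO arrays scanned apart limit every comparison with that group.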
